A study of Homo sapiens with 13 samples.

Results

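The 8 genes described here code for subunits of activator protein 1 (AP-1). They are FOS, FOSB, FOSL1 and FOSL2 of the FOS family, JUN, JUNB and JUND of the JUN family, and ATF3. They were chosen by name, through their Ensembl gene identifiers, and all 8 were found among the 59204 human gene rows of the deposited tables. The data come from K562, a long-established leukaemia line (chronic myeloid) with erythroid and megakaryocytic features. In 12 of the 13 libraries the cells had been kept for 12 h in medium with 30 µM 4-thiouridine (4sU), a sulphur analogue of uridine that cells take up and use when they make RNA, with the medium renewed every 3 h. They were then washed in cold buffer, moved to warm medium with 3 mM uridine, and harvested 0, 1, 2, 4, 8 or 12 h later, with 2 libraries at each time. The remaining library, labelled as a control without 4sU, has no replicate, and the labels do not say whether its cells went through the medium changes and the wash. RNA was alkylated, mixed with Drosophila S2 RNA (5%) and read from the 3' ends of transcripts. The tables hold, per gene, a count of all reads, called the total count here, and a count of reads that carry the label, called the labelled count, and their difference is called the unlabelled count.

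AP-1 binds DNA as a dimer of basic leucine zipper (bZIP) proteins. JUN proteins can pair with each other or with a FOS protein, while FOS proteins need a partner, and ATF3 is a related bZIP protein of the stress response that pairs with JUN proteins among others. FOS, FOSB, JUN, JUNB and ATF3 are textbook immediate early or stress genes: serum, growth factors and stress switch on their transcription within minutes through kinases that act on factors at their promoters, and their short-lived mRNAs, which carry AU-rich elements, let the level fall again soon after. FOSL1 and FOSL2 usually follow later, and JUND is made steadily in many cells.

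Promoter sequence was available for 7 of the 8 genes in a RefSeq table of GRCh38.p14 that gives 250 bases before each transcription start and 50 after it. The promoters of the 4 members with the largest rise of total RNA at 1 h (FOS, FOSB, JUN and JUNB) are shown, so that genes that rose in the same hour can be compared. They lie at chr14:75278578-75278877 (FOS, plus strand), chr19:45467746-45468045 (FOSB, plus strand), chr1:58783998-58784297 (JUN, minus strand) and chr19:12791236-12791535 (JUNB, plus strand), and are written 5′ to 3′ along the gene's own strand. Capitals mark matches to a TATA box with the letters TATAAA, to the core of the cAMP response element, which is TGACG, and to the variant AP-1 site known from the JUN promoter, which is TGACATCA.
FOS: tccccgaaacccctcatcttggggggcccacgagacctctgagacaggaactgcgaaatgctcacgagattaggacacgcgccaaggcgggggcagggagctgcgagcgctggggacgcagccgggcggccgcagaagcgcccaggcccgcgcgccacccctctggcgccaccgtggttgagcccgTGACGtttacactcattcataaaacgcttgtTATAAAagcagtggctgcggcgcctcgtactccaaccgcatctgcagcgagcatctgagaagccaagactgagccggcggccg
FOSB: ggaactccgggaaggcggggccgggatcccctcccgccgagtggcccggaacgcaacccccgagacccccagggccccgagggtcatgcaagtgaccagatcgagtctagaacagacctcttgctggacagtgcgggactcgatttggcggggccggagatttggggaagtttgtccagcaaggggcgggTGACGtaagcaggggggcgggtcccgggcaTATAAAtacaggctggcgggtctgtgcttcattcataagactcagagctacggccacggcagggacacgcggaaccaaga
JUN: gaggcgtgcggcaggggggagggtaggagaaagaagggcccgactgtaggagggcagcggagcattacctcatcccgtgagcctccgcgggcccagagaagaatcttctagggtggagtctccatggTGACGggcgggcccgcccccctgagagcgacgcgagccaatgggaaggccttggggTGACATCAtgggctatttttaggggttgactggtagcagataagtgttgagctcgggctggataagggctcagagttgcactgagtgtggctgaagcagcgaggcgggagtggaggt
JUNB: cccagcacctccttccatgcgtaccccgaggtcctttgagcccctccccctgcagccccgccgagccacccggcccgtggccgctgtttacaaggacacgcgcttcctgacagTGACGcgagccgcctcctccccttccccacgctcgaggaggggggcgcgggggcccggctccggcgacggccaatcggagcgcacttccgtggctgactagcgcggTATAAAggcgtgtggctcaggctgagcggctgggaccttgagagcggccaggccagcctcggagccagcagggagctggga

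In FOS, TGACG lay at positions -64 to -60, counted from the first transcribed base as 1, and a TATA box (TATAAA) at -33 to -28. FOSB had the same arrangement, with TGACG at -60 to -56 and its TATA box at -30 to -25. In JUNB the TATA box lay at -31 to -26 and TGACG farther out, at -137 to -133. JUN held TGACATCA at -67 to -60 and TGACG at -123 to -119, and no TATA box of these letters in this window. Of the promoters not shown, that of JUND held the full element TGACGTCA at -200 to -193 and TGACG at -86 to -82. FOSL2 held TGACG at -201 to -197 and at -66 to -62, and its total RNA, tested below, was not called as changed at 1 h. TGACG was thus not confined to the genes that rose. FOSL2 also held a match to the AP-1 site TGANTCA after the start, at bases 255 to 261 of its window of 300. Of the 2 ATF3 windows 1 held TGACATCA and the other TATAAA at -230 to -225, and neither held TGACG. Both strands were searched, and TGACG also lies inside TGACGTCA. Over all 35116 promoters of the table, TGACG was found in 24.6%, TATAAA in 11.5%, TGANTCA in 7.71%, TGACATCA in 2.61%, TGACGTCA in 1.85% and the CArG box, the binding site of serum response factor, in 1.29%. No member window held a CArG box, but sequence more than 250 bases before the start was not searched, nor was any for FOSL1. These are matches of letters, not measured binding.

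In the genome (GRCh38, GENCODE 29) FOS (ENSG00000170345) spans chr14:75278774-75282230, FOSB (ENSG00000125740) chr19:45467995-45475179, FOSL1 (ENSG00000175592) chr11:65892049-65900573 and FOSL2 (ENSG00000075426) chr2:28392448-28417312. JUN (ENSG00000177606) spans chr1:58780788-58784327, JUNB (ENSG00000171223) chr19:12791496-12793315, JUND (ENSG00000130522) chr19:18279760-18281622 and ATF3 (ENSG00000162772) chr1:212565334-212620777. FOSB lies inside the span of ERCC1 on the opposite strand (353 to 692 total counts per library), and JUNB inside that of HOOK2 (27 to 294 counts). Whether the authors counted by strand is not given in the sources used here, so reads of these pairs cannot be told apart with certainty.

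Libraries held 9004529 to 17425584 total counts. Labelled counts made up as much as 36.1% of them at 0 h and as little as 10.6% at 12 h, and numbered 1103 in all without 4sU, where each of the 8 genes had 0. All 9 K562 markers looked for were present, led by the fetal and embryonic globins. Their summed level in CPM, the count divided by the library's total count and multiplied by 1000000, was 4407 CPM without 4sU, 12027 and 13093 CPM at 0 h and 9584 and 10068 CPM at 12 h, so the library without 4sU stood apart from the rest in them. Of 10 markers of other cells, 4 reached a mean of 1 CPM, among them EPCAM, CD3D and LYZ, the sum of all 10 stayed between 80.8 and 110.9 CPM, and the T cell, B cell and granulocyte genes CD3E, MS4A1 and MPO stayed at 0.35 CPM or less in every library. The Drosophila counts divided the libraries along their first component (68.4% of the variance over 597 genes): both libraries of 0, 1 and 2 h and replicate 1 of 4 h lay on one side, and replicate 2 of 4 h, the late libraries (8 and 12 h) and that without 4sU on the other. Comparisons of 0 h with 8 h, 12 h or no 4sU therefore run along this division, and values with the side as a term in the fit are given where they change a call. Only 4 h had a library on each side. When times are compared as groups, this term thus rests on the difference between replicates 1 and 2 of 4 h alone. Values and calls that shift with it carry that difference and are not values freed of the division.

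FOS, the family's namesake and the classic immediate early gene, rose from under 1 CPM to more than 50 CPM within 1 h and had lost most of this by 2 h. Its total counts were 5 and 2 (0 h), 1109 and 718 (1 h), 63 and 71 (2 h), 20 and 7 (4 h), 1 and 3 (8 h) and 4 and 6 (12 h), and 3 without 4sU. In CPM these are 0.50 and 0.22, then 76.5 and 52.1, 4.40 and 5.25, 1.56 and 0.63, 0.084 and 0.26, and 0.35 and 0.47, with 0.17 without 4sU. The libraries of 1 h stood above all others, those of 2 h above the rest, and from 8 h on FOS had 1 to 6 counts, a range that takes in those of 0 h and of the library without 4sU. Summed over both libraries and set against total counts, the level at 1 h was 176 times that at 0 h (exact 95% interval 85.3 to 439) and 13.4 times that at 2 h (11.3 to 16.1). These intervals, like the others on counts and shares below, cover counting error only.

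FOSB codes for a protein close to FOS, and it rose with FOS but stayed high for longer. Its total counts were 8 and 7 (0 h), 819 and 648 (1 h), 654 and 564 (2 h), 166 and 83 (4 h), 26 and 15 (8 h) and 8 and 15 (12 h), and 8 without 4sU. In CPM that is 0.79 and 0.78 (0 h), 56.5 and 47.1 (1 h), 45.7 and 41.7 (2 h), 12.97 and 7.42 (4 h), 2.18 and 1.28 (8 h), 0.70 and 1.17 (12 h), and 0.46 without 4sU. The level at 1 h was 66.0 times that at 0 h (39.9 to 118) but only 1.19 times that at 2 h (1.098 to 1.28). FOS and FOSB were thus near each other at 1 h, where the ratio of FOSB to FOS was 0.74 and 0.90 in the 2 libraries, and apart at 2 h, where it was 10.4 and 7.95.

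JUN, the founding partner of FOS, rose from 35.2 and 32.1 CPM (0 h) to 104.2 and 98.4 CPM (1 h). It was at 62.7 and 66.6 (2 h), 63.2 and 46.0 (4 h), 50.1 and 39.4 (8 h) and 45.7 and 42.7 (12 h), and at 21.5 CPM without 4sU. Both libraries of 1 h were above all others, and every library of the chase, including those of 0 h, was above the library without 4sU. JUNB, which can restrain JUN at some promoters, had 17.9 and 18.5 CPM (0 h) and 29.4 and 32.3 CPM (1 h). It was at 26.8 and 25.9 (2 h), 27.4 and 24.2 (4 h), 32.3 and 30.7 (8 h) and 38.8 and 40.7 (12 h), against 87.3 CPM without 4sU. JUNB was thus lowest at the end of the pulse and highest in the library without 4sU, which no library with 4sU came near. JUND, the JUN family member least tied to growth signals, had, in CPM, 110.3 and 116.9 (0 h), 163.7 and 148.6 (1 h) and 176.7 and 176.8 (2 h). It then stood at 126.3 and 125.7 (4 h), 93.0 and 85.4 (8 h) and 112.9 and 103.4 (12 h), with 184.7 CPM without 4sU. Its highest chase level came at 2 h, an hour after that of FOS and JUN, and its lowest at 8 h.

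FOSL1, a FOS family member without a strong transactivation domain, varied little, in CPM from 19.2 and 20.0 (0 h) to 22.2 and 28.1 (1 h), 23.2 and 30.8 (2 h), 25.2 and 28.98 (4 h), 26.4 and 26.8 (8 h) and 29.5 and 26.7 (12 h), with 12.7 without 4sU. The 2 libraries of 1 h and of 2 h differed from each other by more than the groups of 1 to 12 h differed in their means. FOSL2, its nearest relative, was low throughout, in CPM with 1.49 and 2.11 (0 h), 1.38 and 2.32 (1 h), 3.77 and 3.18 (2 h), 3.91 and 3.67 (4 h), 4.69 and 4.26 (8 h), 4.61 and 4.13 (12 h) and 4.07 without 4sU. From 2 h on every FOSL2 value lay above those of 0 and 1 h. ATF3 had, in CPM, 16.4 and 24.8 (0 h), 24.8 and 23.4 (1 h) and 24.9 and 23.7 (2 h), and then 6.88 and 8.50 (4 h), 4.02 and 4.77 (8 h), 3.56 and 4.21 (12 h) and 2.47 without 4sU. Its libraries fell into a high set up to 2 h and a low set from 4 h on that did not overlap.

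**Figure D1:**
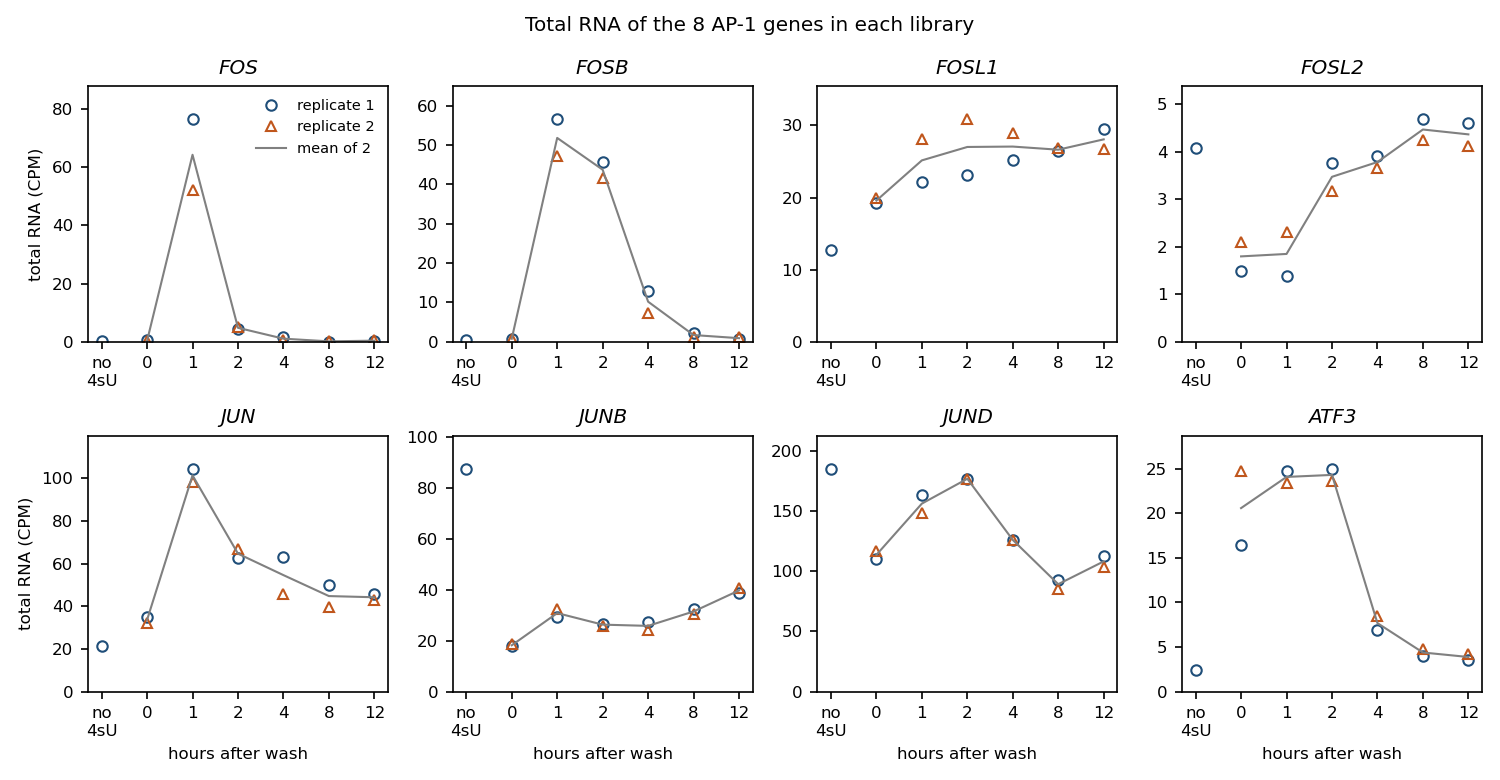
Total RNA of each of the 8 genes (y axis, CPM of total counts, a separate linear scale for each gene) in the library without 4sU and at each hour after the wash (x axis, evenly spaced groups); circles and triangles are replicates 1 and 2 and the line joins the means of 2. FOS and JUN peak at 1 h, FOSB is high at 1 and 2 h, JUND peaks at 2 h, and JUNB is far higher without 4sU (87.3 CPM) than in any library of the chase.

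Tested over all 5 later times against 0 h together, total RNA changed in 7 of the 8 genes (edgeR quasi-likelihood test, adjusted p under 0.05), all but FOSL1 (adjusted p = 0.0609). FOSL1 was also called with spike-in totals as library size (adjusted p = 0.00137), with no filter (0.0366) and without either library of 1 h, replicate 1 of 2 h or either library of 4 h (0.01996 to 0.0404). Over all 16255 genes tested the share was 61.9%, so that a change at some time was common among all genes. At 1 h 5 of 8 members had risen and none had fallen, against 0.301% of all genes higher and 0.0431% lower. FOS rose by 7.43 ± 0.32 on the log2 scale (fitted value ± SE; adjusted p = 1.4e-14) and FOSB by 6.04 ± 0.28 (adjusted p = 3.3e-14), and these were ranks 1 and 2 of 16255 genes. JUN rose by 1.60 ± 0.12 (adjusted p = 1.6e-09), JUNB by 0.77 ± 0.11 (adjusted p = 0.000172) and JUND by 0.48 ± 0.07 (adjusted p = 0.000632). The rise of JUND was not called without replicate 1 of 1 h (0.39, adjusted p = 0.0678). The fitted rises of FOS and FOSB rest on 7 and 15 counts at 0 h, so that the count ratios given above are the firmer values. Between 0 h and the later times the cells differ in the time since the wash, in warm new medium and in uridine, and the parts of these in a change from 0 h cannot be told apart. In libraries of whole cultures, fewer cells of a kind and less RNA per cell cannot be told apart either.

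At 2 h the count was 6 of 8 higher and none lower, against 6.48% and 1.27% of all genes. FOS was still 3.68 ± 0.47 above 0 h on the log2 scale (adjusted p = 8.6e-06) and FOSB 5.78 ± 0.28 (adjusted p = 7.2e-13), and JUN, JUND, JUNB and FOSL1 were 0.94, 0.64, 0.53 and 0.46 above it. At 4 h 5 had risen (FOSB by 3.64 ± 0.35, FOSL2 by 1.03 ± 0.32, JUN by 0.65 ± 0.13, JUNB by 0.45 ± 0.11 and FOSL1 by 0.41 ± 0.14), and ATF3 had fallen by 1.47 ± 0.18 (adjusted p = 4.9e-07), against 18% of all genes higher and 13.5% lower. FOS, 1.54 ± 0.65 above 0 h at 4 h, was not called there (adjusted p = 0.0730), but it was with the spike-in side in the fit (2.01, adjusted p = 0.0169), with spike-in totals as library size (1.63, adjusted p = 0.0313), with no filter (adjusted p = 0.0445) and without replicate 2 of 4 h (1.99, adjusted p = 0.0187) or either library of 1 h. At 8 h the members with a rise were FOSL2 (1.22 ± 0.32), JUNB (0.69 ± 0.11), FOSL1 (0.34 ± 0.14) and JUN (0.31 ± 0.13), and JUND had fallen by 0.45 ± 0.08 and ATF3 by 2.32 ± 0.19, against 24.9% and 23.9% of all genes. FOSB, 1.03 ± 0.50 above 0 h at 8 h, was not called (adjusted p = 0.0934), but it was with the spike-in side in the fit (1.84, adjusted p = 0.00324), with spike-in totals as library size (1.28, adjusted p = 0.0134) and without either library of 4 h or replicate 2 of 8 h. At 12 h 3 members were higher, FOSL2 by 1.19 ± 0.32, JUNB by 1.03 ± 0.11 and FOSL1 by 0.42 ± 0.14, and ATF3 was lower by 2.48 ± 0.19, against 28.9% and 27.3%. JUN, 0.30 ± 0.13 above 0 h at 12 h, lay just outside the threshold (adjusted p = 0.0502). It was called with the spike-in side in the fit (0.76, adjusted p = 0.000289), with spike-in totals as library size (0.66, adjusted p = 3.6e-05), with no filter (adjusted p = 0.0212) and without the library without 4sU or any library of 4 or 8 h (0.00805 to 0.0498). JUND, at 12 h -0.17 ± 0.08 from 0 h and not called (adjusted p = 0.0661), was called as lower with DESeq2 (-0.21, adjusted p = 0.0363) and without replicate 1 of 12 h (adjusted p = 0.0416). FOS and FOSB at 12 h were 0.07 ± 0.80 and 0.17 ± 0.57 from 0 h on the log2 scale and not called (adjusted p = 0.951 and 0.824). From 4 h on changes were common among all genes, and the members' counts are given as a description.

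The small late rises of FOSL1 were lost with the spike-in side in the fit (adjusted p = 0.147 at 4 h, 0.672 at 8 h and 0.449 at 12 h), with DESeq2 (adjusted p = 0.0930, 0.132 and 0.0522), and without either library of 0 h. That at 4 h was also lost without replicate 2 of 4 h, that at 8 h without either library of 8 h, and that at 12 h without replicate 1 of 12 h. Its rise at 2 h was lost with DESeq2 (adjusted p = 0.173) and without either library of 0 h or replicate 2 of 2 h (0.448). FOSL2 at 4 h was lost with DESeq2 (adjusted p = 0.0703) and without replicate 1 of 0 h (0.154) or of 4 h (0.0613), and JUNB at 4 h without replicate 1 of 4 h (0.0537). JUN at 8 h was lost with DESeq2 (adjusted p = 0.100) and without any library of 0, 1, 2 or 12 h or replicate 1 of 8 h (0.0512 to 0.467). With spike-in totals as library size the median gene moved up by 0.10 at 4 h, 0.25 at 8 h and 0.36 at 12 h on the log2 scale, and the fall of JUND at 8 h became 0.19 below 0 h and was not called (adjusted p = 0.147). That scaling turned the split of all genes at 8 h from 4054 higher and 3891 lower to 5464 and 2009, and at 12 h from 4698 and 4443 to 6571 and 2228. The fall of ATF3 kept its call at 4, 8 and 12 h under each alternative run.

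The library without 4sU gives the level of cells that had no analogue. Compared with it, JUNB at 0 h was lower by 2.34 ± 0.12 on the log2 scale (adjusted p = 5.7e-15), JUND lower by 0.78 ± 0.09 and FOSL2 lower by 1.26 ± 0.35, while ATF3 was higher by 2.97 ± 0.25 (adjusted p = 1.5e-10), JUN by 0.58 ± 0.16 and FOSL1 by 0.55 ± 0.18. So 3 members were higher and 3 lower, and of all genes 32.9% were higher and 32.4% lower. At 12 h JUNB was still lower by 1.31 ± 0.11 and JUND by 0.94 ± 0.09, and FOSL1 and JUN were still higher, by 0.97 ± 0.17 and 0.87 ± 0.16, against 27.5% and 23.5% of all genes. ATF3 at 12 h, 0.49 ± 0.30 above the library without 4sU, and FOSL2, 0.07 ± 0.31 below it, were no longer called (adjusted p = 0.179 and 0.869). With only 1 library without 4sU, its difference in 4sU and anything particular to that library, its lower K562 markers included, cannot be told apart, and its spread was assumed to be that of the others.

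These comparisons depend on the scale. With spike-in totals as library size the median gene at 12 h stood 0.94 above the library without 4sU (0.08 with the usual scaling), and at 0 h it stood 0.54 above it, so that 10133 genes were higher and 899 lower at 12 h and 7543 and 2993 at 0 h, where the usual scaling gave 4463 and 3828, and 5343 and 5271. JUNB was lower on both scales, by 1.84 at 0 h and by 0.44 at 12 h on the spike-in scale (adjusted p = 0.0105 at 12 h). JUND at 12 h lost its call on that scale (fell by 0.08, adjusted p = 0.566), FOSL2 at 0 h did too (fell by 0.76, adjusted p = 0.0786), and ATF3 (1.35, adjusted p = 0.000153) and FOSB (1.71, adjusted p = 0.00819) at 12 h became called as higher. FOSL2 at 12 h turned to 0.79 above (adjusted p = 0.0378). JUN at 0 h lost its call with the spike-in side in the fit (0.11, adjusted p = 0.646).

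The make-up of AP-1 mRNA changed with these levels. Sequencing from 3' ends gives about 1 tag per transcript whatever its length, so CPM can be set side by side between genes. Summed over the 8 genes the level, in CPM, was 201.7 and 215.4 (0 h), 478.6 and 432.3 (1 h), 368.1 and 374.0 (2 h), 236.0 and 223.5 (12 h) and 313.4 without 4sU. The 3 JUN genes made up 81.0% and 77.8% of it at 0 h and 62.1% and 64.6% at 1 h, and the 4 FOS genes rose from 10.9% and 10.7% to 32.7% and 30.0%. FOS alone held 14.0 ± 2.8% (mean ± SD, n = 2) at 1 h and 1.30 ± 0.15% at 2 h, when FOSB still held 11.8 ± 0.9%. Without 4sU, JUND (58.9%) and JUNB (27.9%) made up most of the sum, and JUNB had only 8.74 ± 0.18% at 0 h.

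In levels at 0 h the order by mean CPM was JUND, JUN, ATF3, FOSL1, JUNB, FOSL2, FOSB and FOS. The ATF3 libraries (16.4 and 24.8 CPM) enclosed those of FOSL1 (19.2 and 20.0 CPM) and JUNB (17.9 and 18.5 CPM), so ATF3 did not differ from either beyond its spread, while FOSL1 and JUNB did not overlap. At 1 h the order was JUND, JUN, FOS, FOSB, JUNB, FOSL1, ATF3 and FOSL2, with FOS (52.1 and 76.5 CPM) and FOSB (47.1 and 56.5 CPM) overlapping, and FOSL1 and ATF3 likewise. At 12 h it was JUND, JUN, JUNB, FOSL1, FOSL2, ATF3, FOSB and FOS, where FOSL2 and ATF3 overlapped. JUND had the highest level of the 8 in every library, also without 4sU.

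**Figure D2:**
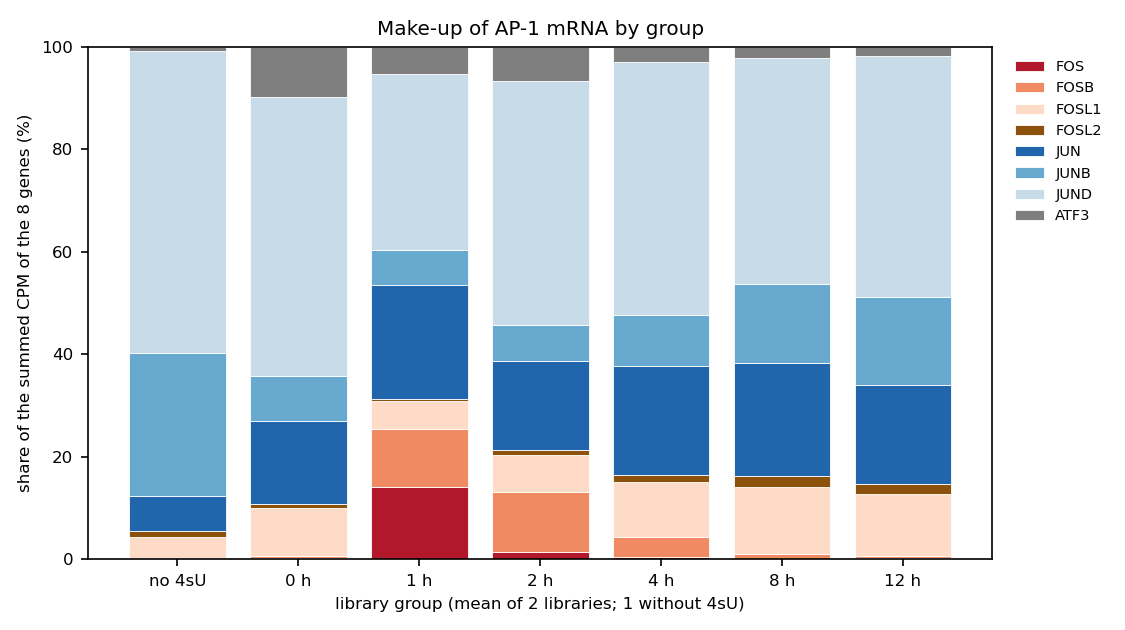
Share of each gene (y axis, percent of the summed CPM of the 8 genes, from 0 to 100) in the library without 4sU and at each hour after the wash (means of 2 libraries). FOS takes 14.0% at 1 h and 1.30% at 2 h, while FOSB keeps 11.8% at 2 h.

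Labelled counts show which of this RNA carried 4sU. Few genes had more of it after the wash: of 9652 genes tested at 1 h against 0 h, 0.104% (10 genes) had more labelled RNA per total count and 0.508% less. FOS, FOSB and JUN were 3 of these 10, and the others were EGR1, DUSP1, KLF6, OSR2, IDS, PTGER3 and MIR23AHG, named after their values were seen. No member was among those with less. FOSL2, with a mean of 3.29 CPM, missed the minimum of 5 CPM and was not tested on labelled counts.

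Labelled FOS counts were 4 and 1 (0 h), 480 and 343 (1 h), 25 and 31 (2 h), 4 and 3 (4 h), 0 and 2 (8 h) and 0 in both libraries (12 h). Both libraries of 1 h stood far above all others. Per total counts of the library, labelled FOS was 111 times higher at 1 h than at 0 h (exact interval 47.4 to 343), with a fitted rise of 6.75 ± 0.36 on the log2 scale (adjusted p = 5.5e-24). Labelled FOSB counts were 2 and 3 (0 h), 123 and 112 (1 h), 84 and 88 (2 h), 30 and 19 (4 h), 0 and 2 (8 h) and 0 at 12 h, a ratio of 31.7 (13.4 to 98.5) between 1 and 0 h and a fitted rise of 4.95 ± 0.45 (adjusted p = 4.2e-13). Labelled JUN was 23.4 and 22.0 CPM of total counts at 0 h and 41.4 and 34.4 CPM at 1 h, a rise of 0.75 ± 0.15 (adjusted p = 0.00225). The call of JUN was lost with DESeq2 (0.76, adjusted p = 0.9999), without replicate 2 of 0 h (0.68, adjusted p = 0.185) and without replicate 1 of 1 h (0.63, adjusted p = 0.389). For the others labelled RNA at 1 h differed from 0 h by 0.13 ± 0.09 (JUND), 0.11 ± 0.21 (JUNB), -0.20 ± 0.20 (ATF3) and -0.43 ± 0.24 (FOSL1) on the log2 scale, and none was called.

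Unlabelled RNA rose more widely in the same hour. It was higher at 1 h in 7 of the 8 members, all but FOSL2, against 5.99% of 14172 genes higher and 0.141% lower. The rises were 8.28 ± 0.45 for FOS, 6.36 ± 0.33 for FOSB, 2.55 ± 0.14 for JUN, 1.36 ± 0.15 for JUNB, 1.02 ± 0.17 for FOSL1, 0.98 ± 0.09 for JUND and 0.76 ± 0.19 for ATF3 on the log2 scale. That of ATF3 was lost with DESeq2 (adjusted p = 0.0588) and without replicate 1 of 0 h (0.46, adjusted p = 0.278), replicate 1 of 1 h (adjusted p = 0.0979) or replicate 2 of 1 h (adjusted p = 0.0626). Total JUND, JUNB and FOSL1 thus gained unlabelled RNA while the change of their labelled RNA was not called. In CPM of total counts, unlabelled JUND went from 38.4 and 37.5 (0 h) to 78.4 and 70.1 (1 h) and 111.2 and 108.1 (2 h).

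**Figure D3:**
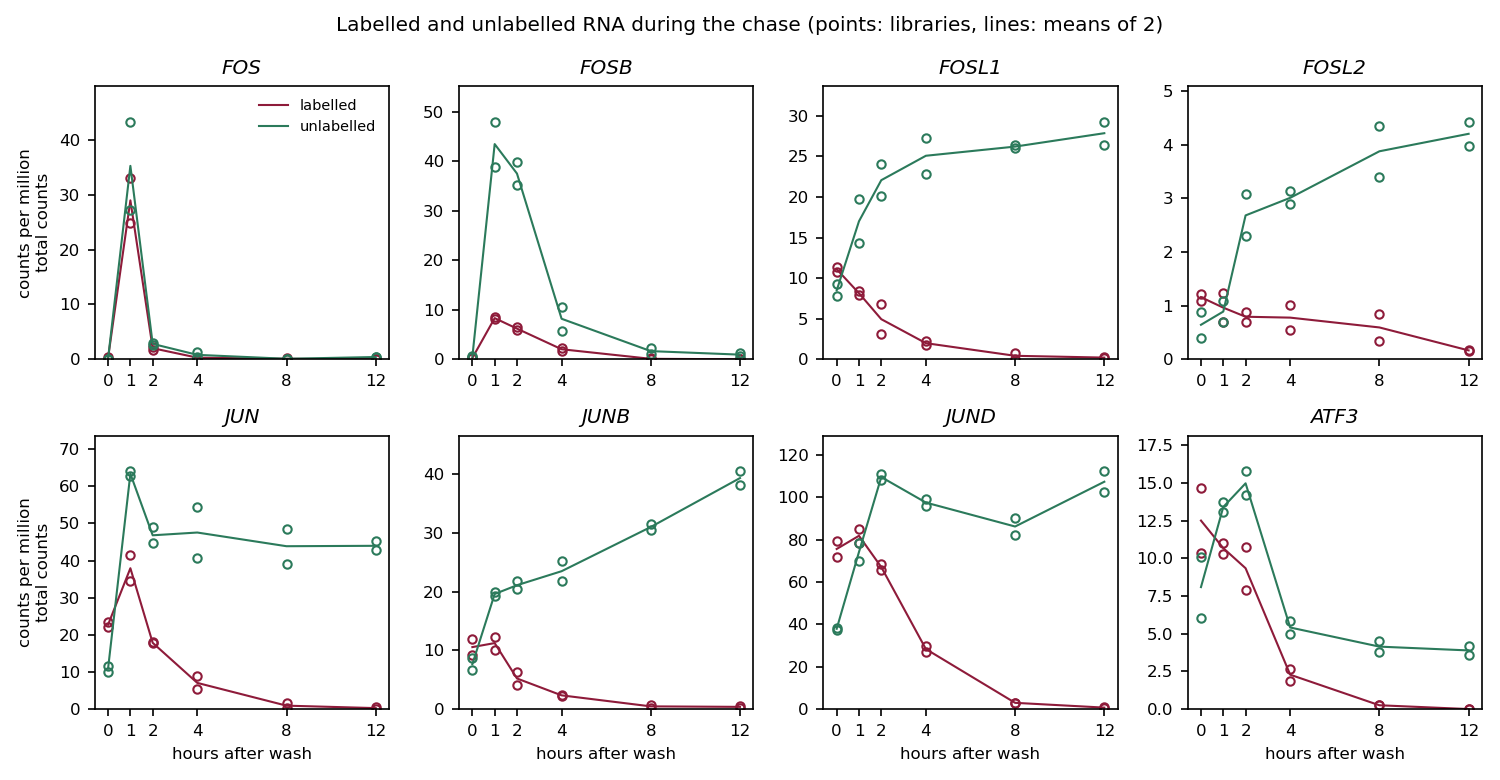
Labelled (dark red) and unlabelled (green) RNA (y axis, CPM of the library's total counts, a separate linear scale for each gene) against hours after the wash (x axis); points are libraries and lines join the means of 2. Labelled RNA of FOS, FOSB and JUN is higher at 1 h than at 0 h, and the unlabelled RNA of FOSB at 1 h (48.0 and 38.9) far exceeds its labelled RNA (8.48 and 8.13).

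The 2 genes with the largest rise differed in how much of their RNA carried label. At 1 h, when their total RNA stood 176 and 66.0 times above 0 h, 43.3% of FOS counts were labelled in replicate 1 (Wilson 95% interval 40.4 to 46.2) and 47.8% in replicate 2 (44.1 to 51.4). Of FOSB counts 15.0% (12.7 to 17.6) and 17.3% (14.6 to 20.4) were labelled. At 2 h the shares were 39.7% and 43.7% for FOS and 12.8% and 15.6% for FOSB, and at 4 h, on 20 and 7 FOS counts and 166 and 83 FOSB counts, 20.0% and 42.9% for FOS and 18.1% and 22.9% for FOSB. The libraries of FOS and FOSB did not overlap at 1 h or 2 h. What sets this difference was not tested. The median gene had 53.6% and 53.3% labelled at 1 h. FOSB was at percentile 5.72 of all genes by its share at 1 h, JUNB at 22.7, JUN at 23.8 and FOSL1 at 18.8.

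At 0 h, after 12 h of label, 66.7% and 68.5% of JUN counts, 65.2% and 67.9% of JUND, 63.0% and 59.2% of ATF3, 51.7% and 64.1% of JUNB and 59.6% and 53.9% of FOSL1 were labelled, where the median gene had 57.3% and 57.9%. The shares of these 5 genes were thus near that of the median gene or above it. By 4 h they were 14.0% and 11.5% for JUN, 8.26% and 9.96% for JUNB, 9.01% and 5.86% for FOSL1 and 21.4% and 23.6% for JUND, all below the median gene's 28.96% and 29.3%. ATF3, at 27.3% and 31.6%, was still at the median, and its total RNA had fallen along with its labelled RNA. FOSL2 had 73.3% and 57.9% at 0 h and 26.0% and 14.6% at 4 h, on 15 to 50 counts per library.

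**Figure D4:**
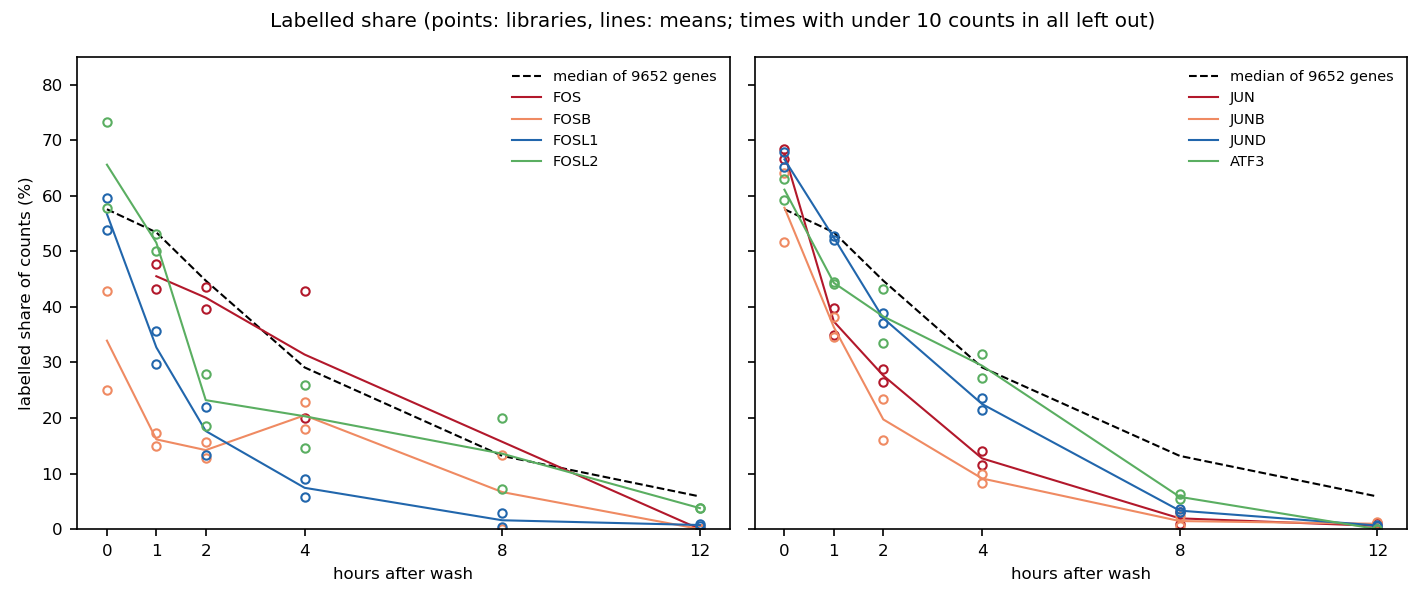
Labelled share of counts (y axis, percent) against hours after the wash (x axis) for the FOS family (left) and for the JUN family and ATF3 (right); points are libraries, lines join the means of 2, the dashed line is the median of 9652 genes, and times with under 10 counts of a gene over both libraries are left out. FOSB lies below FOS at 1 and 2 h, and JUN, JUNB and FOSL1 fall below the median gene from 1 h on.

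Loss of label was measured as the slope of labelled counts on time over the chase, with the library's total as the scale. All 7 members tested lost labelled RNA faster than the median gene, whose slope was -0.24 log2 units per hour. Of all 9652 genes 36% were faster and 36.3% slower. Relative to the median the slope was -0.88 ± 0.25 for FOS (adjusted p = 0.00293), -0.46 ± 0.05 for ATF3 (adjusted p = 5.3e-09), -0.39 ± 0.05 for JUN (adjusted p = 8.2e-08), -0.37 ± 0.03 for JUND (adjusted p = 6.0e-11), -0.33 ± 0.04 for FOSL1 (adjusted p = 2.4e-07), -0.29 ± 0.12 for FOSB (adjusted p = 0.0328) and -0.28 ± 0.04 for JUNB (adjusted p = 2.3e-06). The members' median of -0.37 lay below the value of -0.22 that 10% of all genes fell under. By rank from the fastest, FOS was 3, ATF3 36, JUN 99, JUND 132, FOSL1 244, FOSB 418 and JUNB 477 of 9652. The rank of FOS is that of a gene let in only by its peak at 1 h.

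The slopes of FOS and FOSB describe pools that first grew, and their calls were the weakest. That of FOSB was lost when any library of 1, 8 or 12 h was left out (adjusted p 0.0584 to 0.0967) and with the spike-in side in the fit (-0.06, adjusted p = 0.843), and over 0 to 4 h it turned to 0.06 above the median (adjusted p = 0.846). FOS lost its call with the spike-in side (-0.65, adjusted p = 0.280) and over 0 to 4 h (-0.89, adjusted p = 0.0656). Scaled to the gene's own total count, where a fall of the total RNA itself no longer counts, both lay above the median and were not called (0.04 for FOS and 0.15 for FOSB), while the other 5 stayed below it and called. On that scale 3701 of 9652 genes were called as faster than the median gene and 3840 as slower.

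**Figure D5:**
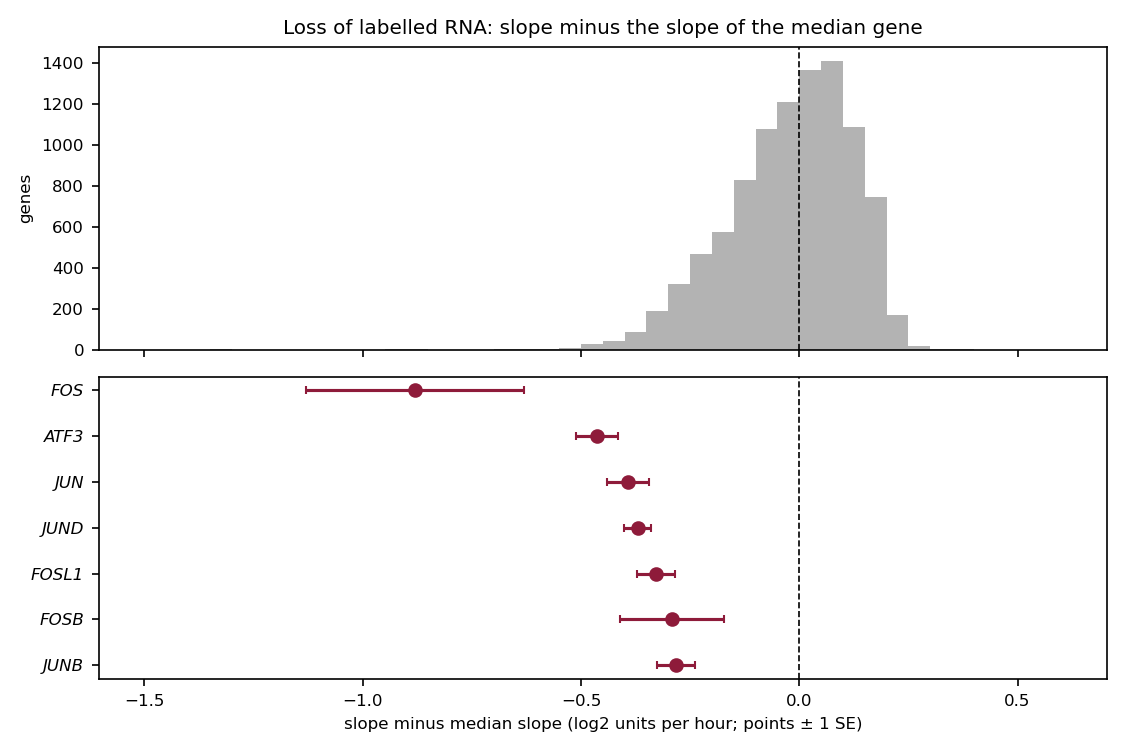
Slope of labelled RNA over 12 h minus the slope of the median gene (x axis, log2 units per hour); grey bars count the 9652 genes tested per bin of 0.05, and red points are the 7 tested AP-1 genes with ± 1 SE. All 7 points lie left of the dashed line at the median gene, FOS farthest (-0.88) and with the widest error.

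As apparent half-lives, from an exponential fitted to the labelled counts of all 12 chase libraries, these were 1.64 h for ATF3 (95% interval 1.29 to 2.26), 1.70 h for FOSL1 (1.404 to 2.16), 1.85 h for JUNB (1.45 to 2.58) and 2.02 h for JUND (1.63 to 2.66), against a median of 4.30 h over all genes. Their intervals overlap, so no order among these 4 can be read from this fit. The value of ATF3 depended on the fit: it was 2.78 h (2.24 to 3.66) with the gene's own total as the scale, where FOSL1 had 1.505 h (1.24 to 1.92) and did not overlap it, and 1.02 h (0.84 to 1.29) from 2 h on. Labelled JUNB and JUND were on average no lower at 1 h than at 0 h, and fitted from 1 h on they gave 1.60 h (1.19 to 2.41) and 1.62 h (1.43 to 1.88). From 2 h on JUNB gave 2.05 h (1.51 to 3.16) and JUND 1.41 h (1.32 to 1.53). The value of JUND thus depended on the fit too, since this interval lies below that over all times. FOSL2, on 108 labelled counts in all, gave 5.51 h (3.73 to 10.5), an interval that takes in the median gene's value, and 3.32 h (2.43 to 5.27) with its own total as the scale. For JUN and FOSB, whose labelled RNA rose first, the fit from 1 h on is the better description, and it gave 1.25 h (1.02 to 1.60) and 1.30 h (1.11 to 1.55), where the median gene had 4.01 h. Over all times JUN gave 1.80 h (1.31 to 2.90) and FOSB 2.42 h (1.40 to 9.07). FOS did not follow a single exponential. Its spread around the fit over all times was 142 times the variance of counting. This value was also large for JUND (37.7), JUN (33.7) and FOSB (23.7). Labelled FOS was 14.5 times lower at 2 h than at 1 h (exact interval 11.03 to 19.3), and labelled FOSB 1.35 times lower (1.10 to 1.65).

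Between 1 and 2 h labelled RNA fell in 4 of the 7 tested members and rose in none, against 3.57% of all genes lower and 0.0311% higher. FOS fell by 3.86 ± 0.23 on the log2 scale (adjusted p = 3.9e-21), the largest fall of the 9652 genes. Since FOS passed the filter only through its peak at 1 h, this rank is a description. JUN fell by 1.11 ± 0.15 (adjusted p = 1.3e-07), JUNB fell by 1.115 ± 0.22 (adjusted p = 0.000616) and JUND by 0.31 ± 0.09 (adjusted p = 0.0362). FOSL1 (-0.75 ± 0.25, adjusted p = 0.0759), FOSB (-0.44 ± 0.24, adjusted p = 0.395) and ATF3 (-0.21 ± 0.20, adjusted p = 0.706) were not called. The call of JUN was lost with DESeq2 (-1.14, adjusted p = 0.354), that of JUNB without replicate 2 of 2 h (-0.83, adjusted p = 0.137), and that of JUND with DESeq2 (adjusted p = 0.0682), with spike-in totals as library size (-0.23, adjusted p = 0.585), with no filter and without replicate 1 of 1 h or either library of 2 h. With its own total as the scale labelled FOS fell by only 0.11 (adjusted p = 0.701), and its total RNA fell in the same hour.

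Other genes of the pathway were taken as 3 lists. Of 12 bZIP partners of AP-1 10 were tested on total RNA, of 20 upstream kinases and serum response factors 19, and of 20 textbook AP-1 target genes 11. At 1 h 1 of these 40 tested genes had changed, SRF, the factor that binds the CArG box, which rose by 0.51 ± 0.07 on the log2 scale (adjusted p = 7.9e-05). Of all genes 0.301% were higher and 0.0431% lower. Medians of the lists at 1 h were 0.09, 0.01 and -0.02, against 0.63 over the 8 AP-1 genes. Unlabelled RNA rose at 1 h for 2 of 10 tested bZIP partners, MAFF (1.64 ± 0.28) and MAFK (0.61 ± 0.15). It also rose for 3 of 19 upstream genes, SRF (0.98 ± 0.08), the kinase MAP3K1 (0.73 ± 0.17) and the SRF coactivator MRTFA (0.78 ± 0.23). None of the 10 tested targets rose. The shares over all 14172 genes were 5.99% higher and 0.141% lower. MAFK was named after its value was seen. At 12 h 4 partners had risen and 4 fallen, 8 and 6 of the upstream genes, and 6 and 2 of the targets, where 28.9% of all genes were higher and 27.3% lower, so these counts are read only as a description. The largest changes were rises of BATF, a bZIP partner of JUN proteins (2.26 ± 0.79, adjusted p = 0.0176), and of ELK3, a partner of SRF (2.02 ± 0.53, adjusted p = 0.00235), both under 1 CPM at 0 h, and falls of VEGFA, an angiogenic growth factor (1.36 ± 0.12 lower), and of the kinase MAP2K1 (1.06 ± 0.12 lower).

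In loss of label, 5 of 6 tested bZIP partners were faster than the median gene and none slower, where 36% of all genes were faster and 36.3% slower. MAFG (-0.31 ± 0.02) and MAFF (-0.22 ± 0.05), small MAF proteins, had the steepest slopes, and CREB5 (-0.08 ± 0.03) and ATF7 (-0.01 ± 0.02, adjusted p = 0.785) the flattest. Of 17 tested upstream genes 8 were faster and 4 slower, from MRTFA (-0.30 ± 0.07) and MAP3K1 (-0.26 ± 0.03) to the kinases MAPK3 (0.13 ± 0.03) and MAP2K2 (0.14 ± 0.02). Of 5 tested targets 1 was faster and 3 slower. VEGFA (-0.07 ± 0.02) and the urokinase receptor gene PLAUR (-0.07 ± 0.03, adjusted p = 0.0628) lay at the fast end, and the metallothionein MT2A (0.15 ± 0.02) and the protease inhibitor TIMP1 (0.17 ± 0.01) at the slow end. The list medians were -0.11, -0.01 and 0.13 log2 units per hour, against -0.37 over the 7 AP-1 genes.

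Across the 13 libraries the genes whose total level ran most like that of FOS were TMEM67 (Pearson r = 0.923 of log2(CPM + 1), 9775 genes compared), DUSP1, a phosphatase that switches off MAP kinases (0.907), and OSR2 (0.881). For FOSB they were KLF10 (0.942), TIPARP (0.889) and JUN (0.878), for JUN ARRDC3 (0.954), TMEM67 (0.926) and EGR1 (0.914), and for JUNB RIPOR1 (0.969), SNHG3 (0.966) and VSIG10L (0.953). FOSL1 ran most like DLG1 (0.960), LRRFIP2 and ZMYM1, JUND like IP6K2 (0.890), ENOSF1 and SPATA2, and ATF3 like the mitochondrial gene MT-ND4L (0.977), the pseudogene RPL35AP33 and AMD1, of which the first 2 may share reads with near copies. Among the members themselves r was 0.856 for FOS with JUN, 0.845 for FOS with FOSB and 0.878 for FOSB with JUN, and -0.744 for ATF3 with FOSL2. These are descriptions over libraries that share chase times and the division of the spike-in, and carry no test.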

How the data were processed

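The authors deposited 3 tables of raw counts, which give each human gene its total and its labelled (nascent) reads and each Drosophila gene its reads, for 13 K562 libraries (QuantSeq 3' kit, per the labels' protocols). Trim Galore 0.6.5, bcl2fastq 2.17.1.14, bedtools and the builds hg38 and dm6 appear in the submitters' processing notes. No source used here gives the aligner, the annotation or the rule for a labelled read. Groups come from the library titles. The labels do not name separate cultures, and p-values may thus reflect only technical spread between libraries. The 8 genes, the lists, the tests and the rule for named genes were chosen with earlier results of these data known.

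Counts were tested with edgeR 4.0.16 under R 4.3.3, by its two-sided quasi-likelihood F-test at a false discovery rate of 0.05 (Benjamini-Hochberg over all genes tested). Total counts of 13 libraries in 7 groups were filtered with filterByExpr and scaled with TMM. Labelled counts of the 12 chase libraries were offset by the total library's TMM effective size, for genes with a mean of 5 CPM and 100 labelled counts in all, and the slope minus the median slope was tested. Half-lives are quasi-Poisson exponential fits above the background seen without 4sU (Python 3.11.15 with pandas 2.3.3, scipy 1.17.1, numpy 2.4.6 and matplotlib 3.10.9). Fits were tested on simulated data. Alternatives were DESeq2 1.42.0, spike-in totals as library size, the spike-in side (genes with a mean of 200 counts or more), each gene's own total as offset, other filters and time windows, a replicate block, and each library left out.

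Named were the 8 genes, of each list the 2 tested genes with the most and the 2 with the least negative slope, the 2 largest rises and falls of total RNA at 1 and 12 h over the lists, and the 3 genes most alike in level to each member with a mean of at least 5 CPM. Gene names came from a table of gene names and spans from GENCODE 29. One marker gene is not reported here by name.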

Additional observations from a re-analysis of the deposited data

How the results depend on the processing

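Most results of the 8 genes held, with 1522 of 1650 recomputed values the same. For tests, this means the same direction and the same side of the threshold. For apparent half-lives, with FOS left out, it means a value inside the 95% interval of the main fit. Outside that interval lay 9 half-lives. Of the values that were the same, 1079 came from leaving out 1 library, in many cases one outside the comparison, which could move a value little. The other alternatives gave 443 values the same, 23 with a call lost, 18 with a call gained, 13 with the direction turned and the 9 half-lives. The number of members called ranged, when each library was left out in turn, from 6 to 7 for the slope of labelled RNA, 2 to 3 for labelled RNA at 1 h against 0 h and 3 to 5 at 2 h against 1 h, 7 to 8 for total RNA at any time, 4 to 5 at 1 h, 5 to 6 at 2 h, 4 to 7 at 4 h and at 8 h, 3 to 5 at 12 h, 6 at 0 h and 4 at 12 h against the library without 4sU, and 6 to 7 for unlabelled RNA. For labelled RNA at 2 h against 1 h DESeq2 called 2 members in place of 4. Offset by the gene's own total, 5 members (FOSL1, JUN, JUNB, JUND and ATF3) were called as having less labelled RNA at 1 h than at 0 h in place of 3 with more. Of all 9652 genes, 288 were called as lower and 4 as higher under this offset. JUN (-0.85), JUNB (-0.66) and JUND (-0.34) turned with it, as did FOS (-0.66) and FOSB (-1.06), which were not called, and the slopes of FOS (0.038) and FOSB (0.15) turned too, since this offset removes the rise of the total. The slope of FOSB also turned over 0 to 4 h (0.059). With spike-in totals as library size JUND at 12 h against 0 h (0.19) and FOSL2 at 12 h against no 4sU (0.79) turned, and with the spike-in side FOS at 8 h (0.14) and FOS (-0.33) and FOSB (-0.12) at 0 h against no 4sU. Leaving out 1 library turned only values near 0 that were not called: labelled JUNB at 1 h (range over the libraries left out -0.033 to 0.26), labelled ATF3 at 1 h (-0.41 to 0.031) and 2 h (-0.51 to 0.020), total FOSL2 at 1 h (-0.35 to 0.38), total FOS (-0.39 to 0.80) and FOSB (-0.26 to 0.47) at 12 h, and FOSL2 at 12 h against no 4sU (-0.15 to 0.013). Except where stated, the cause was not tested.

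Deviations of same-numbered replicates were on median little related (correlations from -0.17 to 0.45, median 0.05, over 15 pairs of times and 8585 genes). Whether the numbers mark shared cultures is not given by the labels, and these correlations cannot settle it. With the replicate number as a block, FOS at 4 h (1.53), FOSB at 8 h (1.03), JUN at 12 h (0.30) and JUND at 12 h (-0.17) became called, as did FOSL1 over all times together (adjusted p = 0.0362), and no call was lost. Depth limits FOS at 0, 8 and 12 h to 1 to 6 counts per library and FOSB at 0 h to 7 and 8, so their folds are known only within wide intervals, and labelled FOSL2 rests on 108 counts.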
